A study of Mus musculus with 6 samples.

Results

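Leydig cells lie between the seminiferous tubules and make the testosterone of the testis. Luteinizing hormone binds its receptor on these cells and raises cyclic AMP, cholesterol is taken up and carried into mitochondria, and a short chain of enzymes in mitochondria and endoplasmic reticulum turns it into testosterone. The same cells secrete the peptide hormone INSL3, which is widely used as a marker of mature Leydig cells. Cadmium is a known testicular toxicant. The 10 genes described here were listed by name as the core of this chain, with earlier results of these data known. They are the luteinizing hormone receptor (Lhcgr), the steroidogenic regulator Nr5a1, the cholesterol handling genes Scarb1 and Star, the enzyme genes Cyp11a1, Hsd3b1, Hsd3b6, Cyp17a1 and Hsd17b3, and Insl3. All 10 had values among the 14000 genes measured, through 16 of the 27120 listed transcripts.

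Whole testes of 6 wild-type C57BL/6N males were sequenced, 3 libraries in each of 2 groups. In the H+Cd group the mice were F1 males whose fathers ate a high-fat diet (HFD) from week 5 to week 15 of life, which is 1 paternal HFD generation. In the H+H+Cd group they were F2 males with 2 successive paternal HFD generations, the diet of the second again lasting 10 weeks. The males of both groups drank cadmium chloride (CdCl2) for 10 weeks and were 15 weeks old at the end. The study calls these groups HFD1D and HFD2D. Generation and diet history go together here and cannot be told apart, and no group free of cadmium or of a paternal HFD was used here. Per the methods, 1 male was kept per litter, but the labels do not say which litter a library came from, so p-values measure the spread between these samples. Values are FPKM, which relate the fragments of a transcript to its length and to the size of the library, summed over the listed transcripts of a gene. Summed FPKM ran from 382815 to 397147.5 per library, and the read depth is unknown.

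Markers of adult Leydig cells were detected in all 6 libraries. Of 15 other adult Leydig cell markers, which are no members, 13 had values, with a summed level of 401 to 501 FPKM. Fabp3, Aldh1a1 and Ptgds led this sum, each at 88.2 FPKM or more in every library. Whole testis does not show which cells made their RNA. None of 5 adrenal cortex markers had a value in the table. By mean level over the 6 libraries, Insl3 stood first (218 FPKM, above 98.1% of the genes with a value) and Cyp17a1 second (137 FPKM). Hsd3b6 (44.7), Hsd3b1 (28.9), Cyp11a1 (24.4), Hsd17b3 (24.4), Scarb1 (19.7) and Star (19.5 FPKM) followed, and Nr5a1 (4.73) and Lhcgr (2.36 FPKM) came last. Taking neighbours in this order, the libraries of Cyp17a1 all lay above those of Hsd3b6, those of Hsd17b3 above those of Scarb1, those of Star above those of Nr5a1, and those of Nr5a1 above those of Lhcgr. The other neighbours overlapped, Insl3 and Cyp17a1 only through the Insl3 value of H+Cd replicate 2 (45.5 FPKM).

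**Figure D1:**
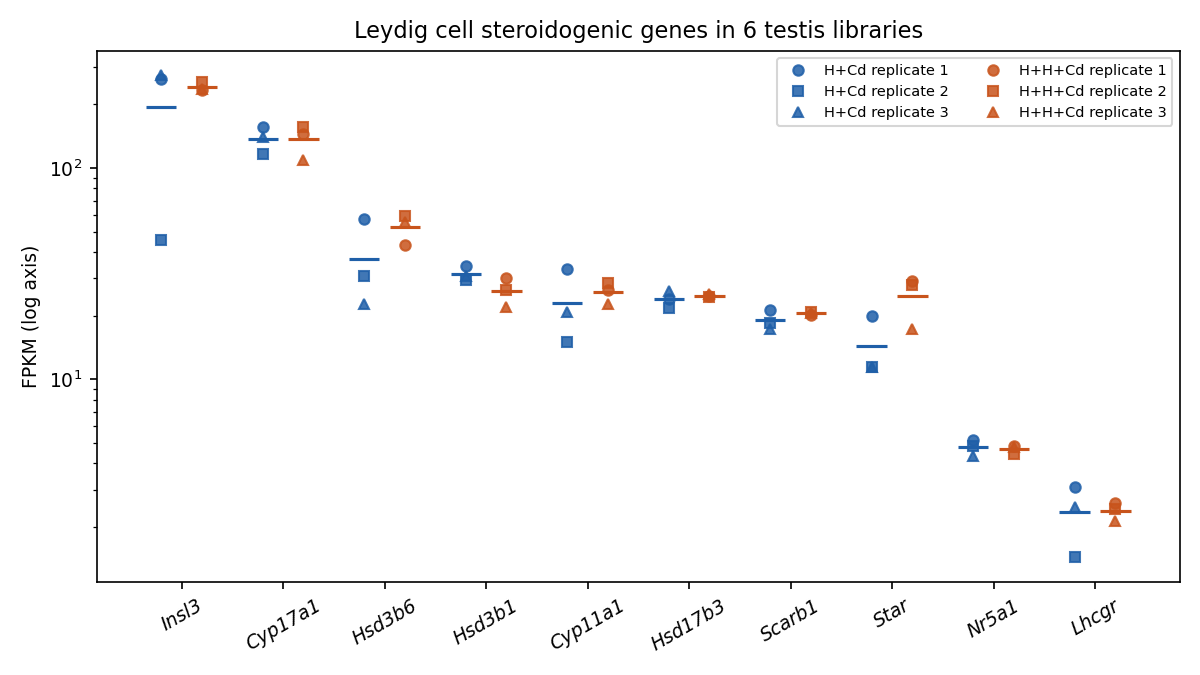
FPKM (log axis) of the 10 genes, ordered by mean level, in each library of H+Cd (blue) and H+H+Cd (orange), with the replicate given by the marker and the group mean by a short line. In every gene the 2 groups overlap, and Insl3 in H+Cd replicate 2 (45.5 FPKM) lies far below the other 5 libraries.

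The comparison asked whether a second paternal HFD generation goes with other levels of these genes in testes of males given cadmium. With limma, 0 of the 10 passed an adjusted p of 0.05, and over all 13769 genes tested 1 gene passed (0.00726%). Star alone had an unadjusted p under 0.05, as did 11.9% of all genes. The groups overlapped in all 10, whereas they did not overlap in 19.4% of all genes. The log2 fold change of FPKM + 1 was positive, that is higher in H+H+Cd, in 7 of 10, against 50.2% of all genes. The median was 0.08 for the 10 genes and 0.00069 for all genes. These counts rested on single libraries. Without H+Cd replicate 2 the log2 fold change was positive in 3 of 10, and without H+Cd replicate 1 in 9 of 10. Without H+Cd replicate 1 the groups also stopped overlapping in 4 of 10, beside 37.2% of all genes, and 0 passed. Differences in the number of Leydig cells and in RNA per cell cannot be told apart in whole testis.

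**Figure D2:**
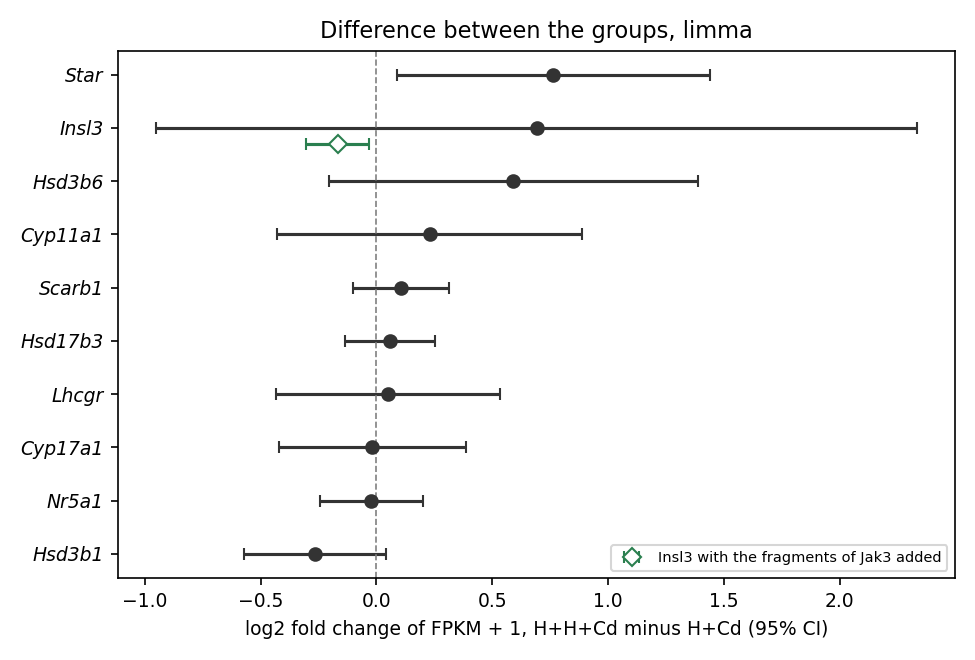
Log2 fold change of FPKM + 1, H+H+Cd minus H+Cd, for each gene, with the 95% confidence interval from limma; the open diamond is Insl3 after the fragments of Jak3 were added. The interval of Star (0.09 to 1.44) and that of the joined Insl3 (-0.30 to -0.03) leave out 0, and the adjusted p of both was above 0.05.

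Star carries cholesterol to the inner mitochondrial membrane, the acutely regulated step of the chain. Its level was 20.0, 11.5 and 11.4 FPKM in H+Cd replicates 1 to 3 and 29.0, 28.0 and 17.2 FPKM in H+H+Cd replicates 1 to 3. The lowest H+H+Cd library lay below the highest H+Cd library, so the groups overlapped in this 1 place. The group means were 14.3 ± 4.94 and 24.8 ± 6.54 FPKM (SD, n = 3 each), and the log2 fold change was 0.76 (SE 0.28, 95% confidence interval 0.09 to 1.44, unadjusted p = 0.0325, limma adjusted p = 0.393). Leaving out 1 library at a time gave log2 fold changes from 0.64 to 1.02. Star is 1 transcript in the table, ENSMUST00000033979.5, from a gene at chr8:25806555-25815982 on the plus strand (mm10). Set against Cyp17a1, a ratio chosen after the values were seen, Star stood at 0.128, 0.0987 and 0.0812 in H+Cd and at 0.2004, 0.180 and 0.158 in H+H+Cd. For this ratio the groups did not overlap. The two-sided exact permutation p was 0.1, the smallest that 3 against 3 allows, and 0.333 adjusted over the 5 ratios computed. Set against Nr5a1, Star stood at 3.877, 2.368 and 2.633 in H+Cd and at 6.014, 6.345 and 3.594 in H+H+Cd. For that ratio the groups overlapped (exact permutation p = 0.2, adjusted 0.333).

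Scarb1 encodes the receptor that takes up cholesterol esters from high-density lipoprotein. It stood at 21.2, 18.5 and 17.3 FPKM in H+Cd and at 20.1, 20.7 and 20.6 FPKM in H+H+Cd. The 3 H+H+Cd libraries were close together and fell between the H+Cd libraries, with a log2 fold change of 0.11 (-0.10 to 0.31, adjusted p = 0.638). It was 0.18 without H+Cd replicate 1 and 0.05 without H+Cd replicate 3, with adjusted p of 0.287 and 0.882. Cyp11a1, the side-chain cleavage enzyme that makes pregnenolone from cholesterol, stood at 33.2, 15.0 and 20.7 FPKM in H+Cd and at 26.3, 28.6 and 22.7 FPKM in H+H+Cd. Its highest and its 2 lowest libraries were all H+Cd. The log2 fold change was 0.23 (-0.43 to 0.89, adjusted p = 0.748), and -0.03 without H+Cd replicate 2.

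Cyp17a1 encodes the 17-alpha-hydroxylase and lyase that turns progestins into androgens. It stood at 157, 116 and 140.3 FPKM in H+Cd and at 145, 156 and 109 FPKM in H+H+Cd, with group means of 138 ± 20.5 and 137 ± 24.6 FPKM. The groups covered nearly the same range, and the log2 fold change was -0.02 (-0.42 to 0.39, adjusted p = 0.974). Hsd17b3 encodes the enzyme that makes testosterone from androstenedione. It stood at 24.0, 21.6 and 26.0 FPKM in H+Cd and at 24.6, 24.5 and 25.4 FPKM in H+H+Cd. It was among the steadiest of the 10, with a coefficient of variation of 6.22% over the 6 libraries and a log2 fold change of 0.06 (-0.14 to 0.25, adjusted p = 0.782).

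The receptor and the regulator at the head of the chain were low and did not separate the groups. Lhcgr, the luteinizing hormone receptor, stood at 3.09, 1.43 and 2.50 FPKM in H+Cd and at 2.59, 2.42 and 2.14 FPKM in H+H+Cd. Its highest and lowest libraries were both H+Cd, and the log2 fold change was 0.05 (-0.43 to 0.53, adjusted p = 0.936) and -0.16 without H+Cd replicate 2. Nr5a1 encodes steroidogenic factor 1, a nuclear receptor that drives transcription of many genes of this chain and is also made by Sertoli cells. It stood at 5.16, 4.84 and 4.33 FPKM in H+Cd and at 4.83, 4.42 and 4.79 FPKM in H+H+Cd. The H+H+Cd libraries lay inside the H+Cd range, and the log2 fold change was -0.02 (-0.24 to 0.20, adjusted p = 0.939).

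Insl3 held the widest spread of the 10, 6.06-fold between its highest and lowest library, and H+Cd replicate 2 was far below the rest. It stood at 263, 45.5 and 276 FPKM in H+Cd replicates 1 to 3 and at 235, 255 and 236 FPKM in H+H+Cd. As deposited, the log2 fold change was 0.69 (-0.95 to 2.33, adjusted p = 0.693), and -0.15 without H+Cd replicate 2. Insl3 lies at chr8:71689214-71690575 on the plus strand (mm10) and has 2 exons. Its second exon, chr8:71690172-71690575, is in the annotation also the last of the 25 exons of the listed transcript of Jak3, a cytokine receptor kinase of lymphoid cells that starts upstream on the same strand. Thus 404 of the 623 exonic bases of Insl3 (64.8%) can be assigned to either gene. Across the other 9 genes, no exon of another annotated gene overlapped an exon of a listed transcript. The junctions shown next, 15 bases on each side, are where the 2 transcripts can be told apart, with the start of the shared exon in capitals and the exon before it in lower case.
Insl3: tggagacccgggaccGGGAGCTGCTGCAGT
Jak3: cagccaggggcgagaGGGAGCTGCTGCAGT

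Jak3 was high in the library in which Insl3 was low. Its level was 1.78, 33.5 and 0.397 FPKM in H+Cd replicates 1 to 3, and it was listed at 0 in all 3 H+H+Cd libraries. FPKM divides by length, and the Jak3 transcript has 4019 bases, so the values were multiplied by length in kilobases, which gives a fragment share. On that scale Insl3 had 164, 28.4 and 172 in H+Cd and 146, 159 and 147 in H+H+Cd, and Jak3 had 7.14, 135 and 1.59 in H+Cd. Their sum was 171, 163 and 173 in H+Cd and 146, 159 and 147 in H+H+Cd. In the sum, H+Cd replicate 2 was close to the other libraries of its group, and the groups did not overlap. The exact permutation p of the sum was 0.1, the smallest possible. When the fragments of both were counted as Insl3, an alternative chosen after the data were seen, the log2 fold change was -0.17 (SE 0.06, -0.30 to -0.03, unadjusted p = 0.0241, adjusted p = 0.389), so the direction turned. With this value 6 of the 10 genes had a positive log2 fold change (50.2% of all genes), 2 had an unadjusted p under 0.05 (11.9% of all genes as deposited) and 1 had groups that did not overlap (19.4% of all genes). Which of the 2 transcripts the fragments of H+Cd replicate 2 came from was not tested.

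**Figure D3:**
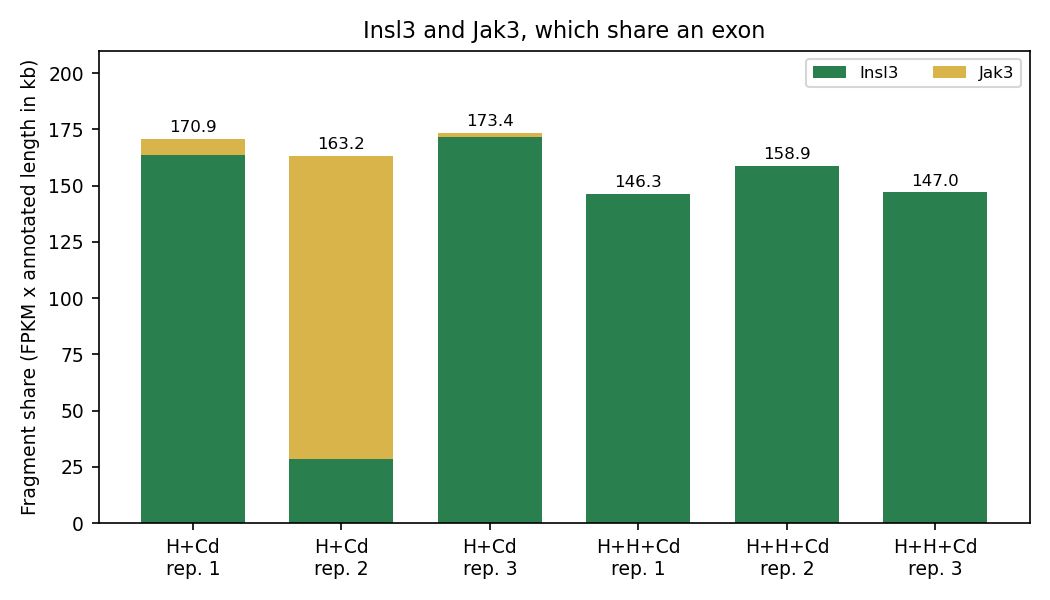
Fragment share (FPKM multiplied by annotated transcript length in kilobases) for Insl3 (green) and Jak3 (yellow), stacked in each library, with their sum above the bar. In H+Cd replicate 2 most of the sum (135 of 163) is listed under Jak3, while the 3 H+H+Cd libraries have Jak3 at 0.

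Hsd3b1 and Hsd3b6 encode 3-beta-hydroxysteroid dehydrogenases, which make progesterone from pregnenolone, and both are known from adult mouse Leydig cells. They lie near each other on the minus strand of chromosome 3 (mm10), Hsd3b6 at chr3:98805504-98814443 and Hsd3b1 at chr3:98852194-98859794. Their coding sequences have 1119 bases each and are 90.0% identical without gaps, with up to 72 identical bases in a row, so fragments could be split between them and their values are uncertain to that extent. The first 120 coding bases of each, shown to give the extent of this likeness, have 20 differences, which stand in capitals.
Hsd3b1: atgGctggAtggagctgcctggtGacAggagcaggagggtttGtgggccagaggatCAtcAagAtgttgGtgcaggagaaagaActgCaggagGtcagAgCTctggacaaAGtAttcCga
Hsd3b6: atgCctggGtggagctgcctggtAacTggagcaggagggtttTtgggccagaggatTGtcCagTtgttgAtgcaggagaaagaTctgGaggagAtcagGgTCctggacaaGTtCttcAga

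The paralogues had log2 fold changes of opposite sign, and neither passed. Hsd3b6 stood at 57.3, 30.7 and 22.7 FPKM in H+Cd and at 43.0, 59.3 and 55.4 FPKM in H+H+Cd. All 3 H+H+Cd libraries lay above H+Cd replicates 2 and 3, while H+Cd replicate 1 lay among them, and the log2 fold change was 0.59 (SE 0.33, -0.21 to 1.39, adjusted p = 0.513). It was 0.95 without H+Cd replicate 1 (adjusted p = 0.149) and 0.30 without H+Cd replicate 3 (adjusted p = 0.765). Hsd3b1 stood at 34.3, 29.3 and 30.8 FPKM in H+Cd and at 30.2, 26.5 and 22.0 FPKM in H+H+Cd. Only H+H+Cd replicate 1 reached into the H+Cd range, and the log2 fold change was -0.26 (SE 0.13, -0.57 to 0.04, unadjusted p = 0.0786, adjusted p = 0.457). It was -0.15 without H+H+Cd replicate 3 and -0.05 with only the most abundant transcript of each gene. The ratio of Hsd3b6 to Hsd3b1 was 1.67, 1.05 and 0.736 in H+Cd and 1.42, 2.24 and 2.52 in H+H+Cd. These groups overlapped (exact permutation p = 0.2).

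Single transcripts were then compared. Of the 16 transcripts of the 10 genes, 15 were above the expression limit and 0 passed, against 33 of 25322 transcripts (0.13%). Groups did not overlap in 1 of the 15, against 15.9% of all transcripts. That one was ENSMUST00000029463.12 of Hsd3b6, which begins with a 262-base noncoding exon that the other listed transcript, ENSMUST00000170847.1, lacks, while both have the same coding sequence. ENSMUST00000029463.12 stood at 4.56, 2.11 and 1.55 FPKM in H+Cd and at 39.9, 5.34 and 6.25 FPKM in H+H+Cd (log2 fold change 1.80, -0.16 to 3.77). ENSMUST00000170847.1 stood at 52.8, 28.6 and 21.1 FPKM in H+Cd and at 3.12, 53.9 and 49.2 FPKM in H+H+Cd. In H+H+Cd replicate 1 the first took 92.7% of the gene and in the other 5 libraries 6.82% to 11.3%, so 1 library carried most of the difference. Taking only the most abundant transcript turned the log2 fold change of Hsd3b6 to -0.54.

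The make-up of Hsd3b1 also varied between libraries of 1 group. ENSMUST00000029465.9 took 26.4%, 70.7% and 0% of its level in H+Cd and 50.8%, 27.9% and 0% in H+H+Cd, the rest being ENSMUST00000107016.9, which has the same coding sequence and an added 190-base noncoding exon. Both groups held a library with the first listed at 0. Hsd17b3 had 4 listed transcripts, of which ENSMUST00000222783.1 (36.8% to 56.8%) and ENSMUST00000221513.1 (36.3% to 49.0%) took most in every library. In Scarb1, ENSMUST00000111390.7 took 62.2% to 86.6%. Each of the other 6 genes had 1 listed transcript.

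**Figure D4:**
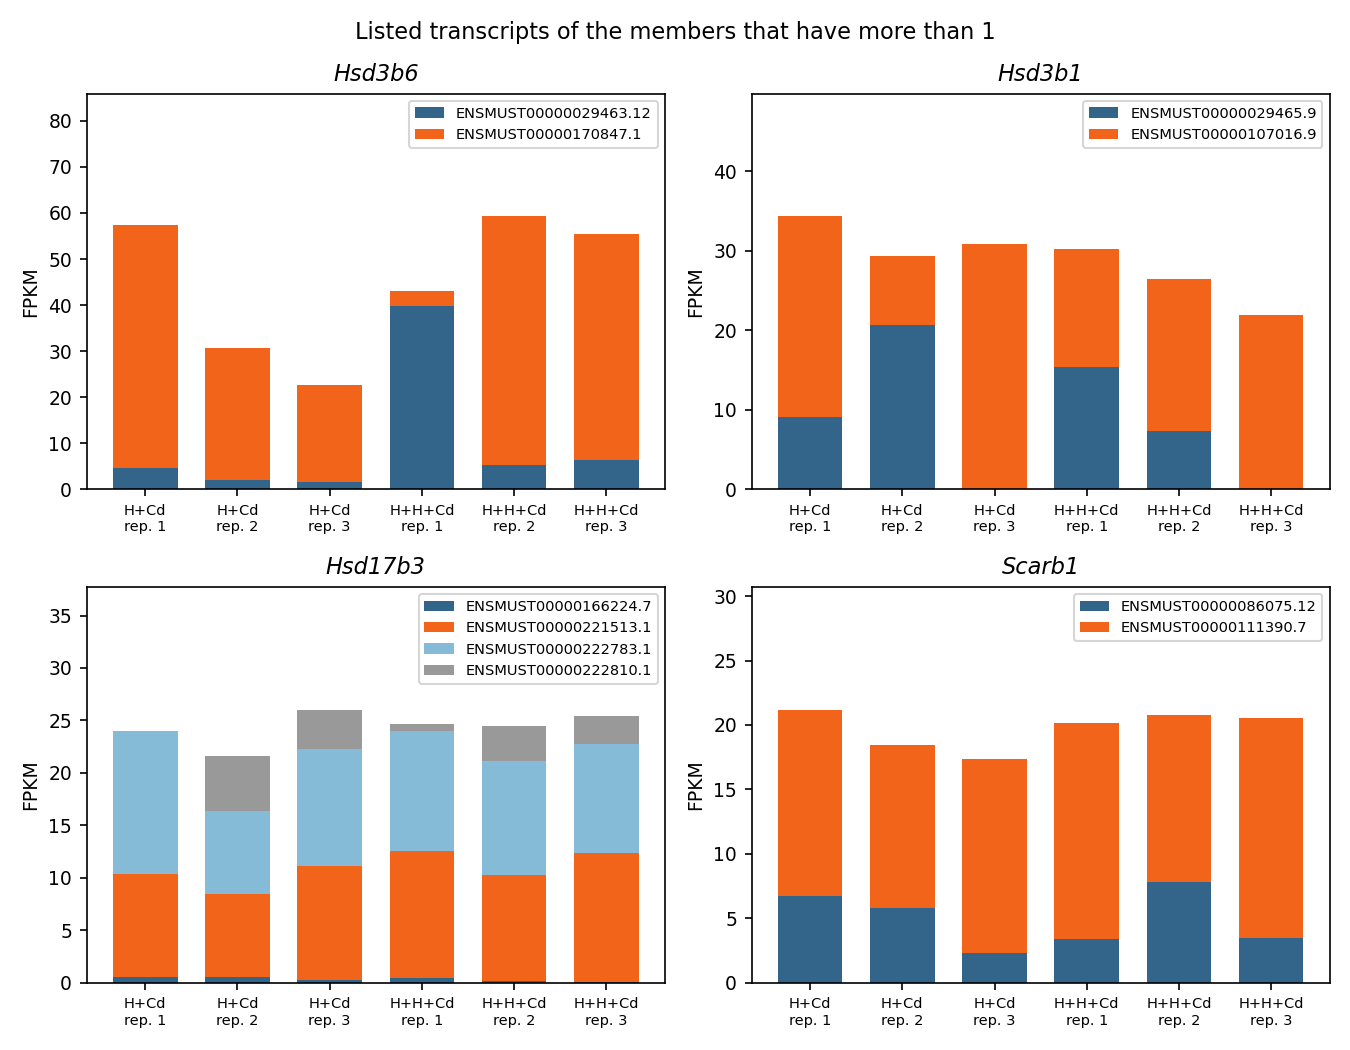
FPKM of each listed transcript of Hsd3b6, Hsd3b1, Hsd17b3 and Scarb1, stacked in each library. In Hsd3b6 the 2 transcripts trade places in H+H+Cd replicate 1 (39.9 against 3.12 FPKM), and in Hsd3b1 their shares differ between libraries of the same group.

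Levels of the 10 genes were then followed across the 6 libraries. H+Cd replicate 2 stood lowest: 8 of the 10 genes were below their own mean there, 4 had their lowest value there, and the median deviation was -0.34 on the log2 scale. Insl3 was among these 8 and these 4. With the fragments of Jak3 added, its share there (163) lay above those of H+H+Cd (146, 159 and 147). H+Cd replicate 1 stood highest, with 6 genes at their highest value and a median deviation of 0.23. H+Cd replicate 3 also held the lowest value of 4 genes, and the H+H+Cd libraries lay between (median deviations of -0.02 to 0.13). The H+Cd libraries therefore spanned both ends. Spermatid markers summed to 11280 FPKM in H+Cd replicate 1, to 16190 and 16490 FPKM in H+Cd replicates 2 and 3, and to 13060 to 13930 FPKM in H+H+Cd. This sum was lowest in the library in which the Leydig genes were highest. It was mostly Prm1, Prm2, Tnp1 and Tnp2, each lowest there. Acrv1 (159.6, 158.4 and 138.8 FPKM) and Spata18 (311.4, 208.1 and 278.6 FPKM in H+Cd replicates 1 to 3) instead had their highest H+Cd value there. The part of spermatid markers in the covariation was not tested.

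Over the 45 pairs of genes the mean Pearson r of log2(FPKM + 1) was 0.37, and 37 pairs were positive. The mean over all pairs of the 12020 genes of at least 1 FPKM was 0.0074. After the group means were taken out the mean r of the members was 0.44. It fell to 0.13 without H+Cd replicate 2, and was 0.27 with the fragments of Jak3 counted as Insl3. All pairs share the same 6 libraries and their composition, and 0 pairs passed after adjustment over the 45. The closest pair was Hsd3b6 with Scarb1, with r = 0.99 (exact permutation p = 0.00417, adjusted 0.188) and Spearman's rho = 0.94 (exact permutation p = 0.0167, adjusted 0.656). Its r was 0.98 within groups, 0.98 without H+Cd replicate 2, and 0.83 without the 2 libraries farthest from the median of Hsd3b6. Cyp11a1 with Lhcgr had r = 0.91 (exact permutation p = 0.0139, adjusted 0.313) and rho = 0.71 (exact permutation p = 0.136, adjusted 0.681). This r was 0.93 within groups and 0.73 without H+Cd replicate 2, but 0.26 without the 2 libraries farthest for Cyp11a1, on which it rested. Insl3 with Lhcgr (r = 0.89, rho = 0.54, exact permutation p of 0.0417 and 0.297, adjusted 0.392 and 0.836) had r = 0.92 within groups, r = 0.43 without H+Cd replicate 2 and r = 0.68 without the 2 libraries farthest for Insl3. Most fragments of Insl3 and Jak3 together were listed under Jak3 in H+Cd replicate 2. The pair Insl3 with Lhcgr was not recomputed with them counted as Insl3. The paralogues Hsd3b1 and Hsd3b6 had r = -0.32.

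**Figure D5:**
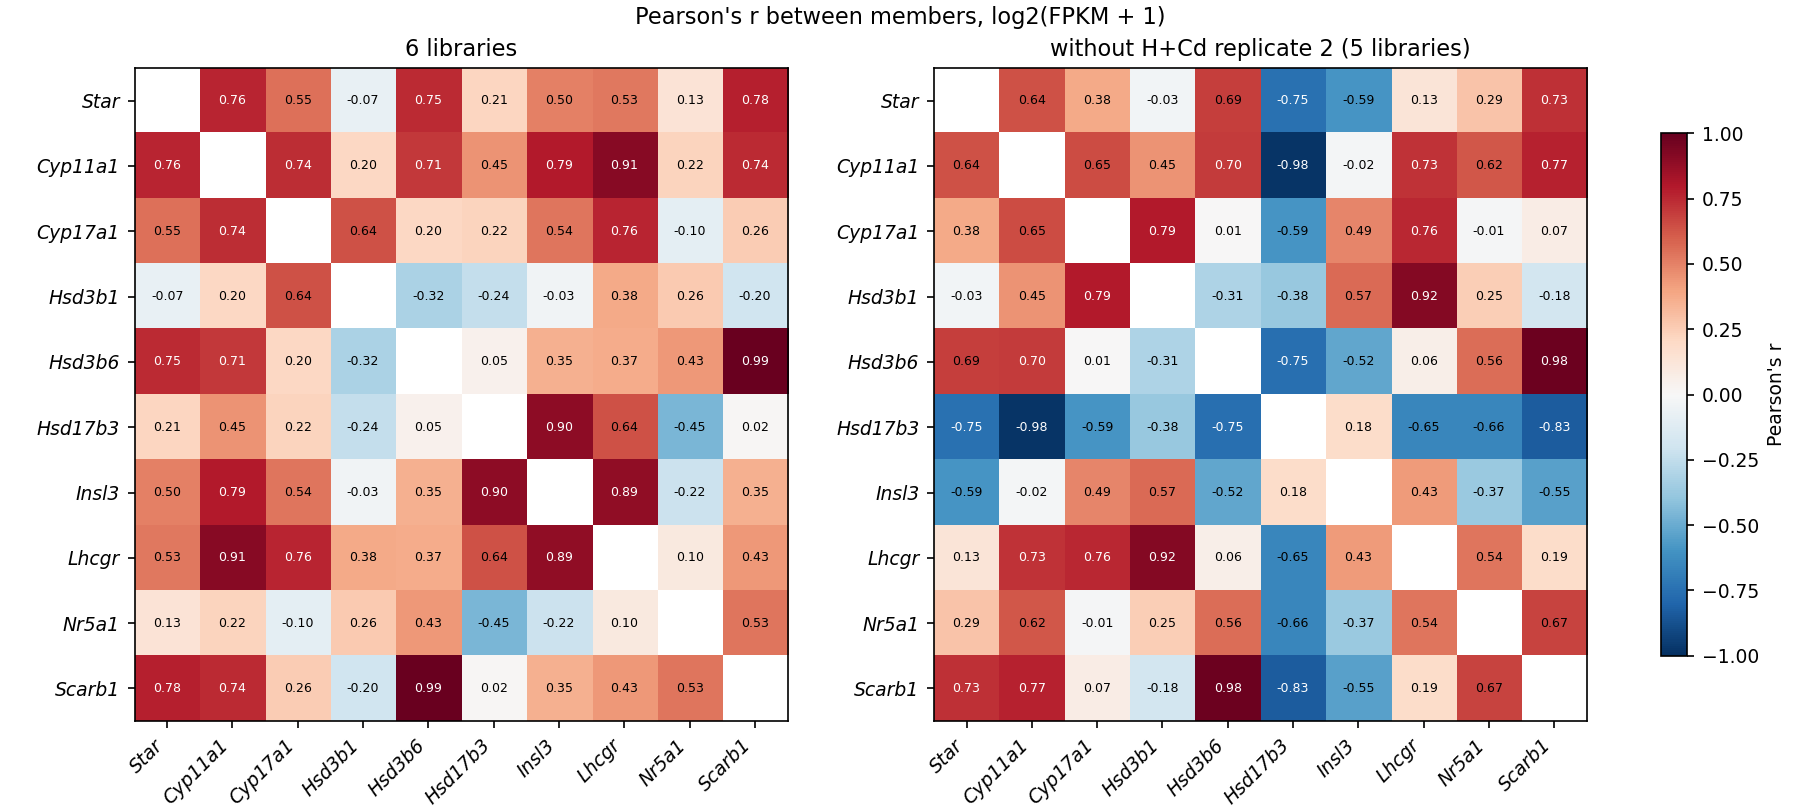
Pearson's r between each pair of the 10 genes over the 6 libraries (left) and over the 5 libraries without H+Cd replicate 2 (right), from -1 (blue) to 1 (red). The mean over the 45 pairs is 0.37 on the left and 0.13 on the right, and Hsd3b6 with Scarb1 stays at 0.98 on the right.

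The genes outside the 10 whose level was most like the mean standardised level of the members were Hmmr, a hyaluronan receptor and spindle protein (r = 0.998), the histone gene Hist1h3a (0.996), Tmem259 (0.986), the ubiquitin ligase Rnf25 (0.986) and the fatty acid desaturase Scd2 (0.984), over 6 libraries. In all 31 genes had an r of at least 0.95 with that mean, and this is a description only. Hmmr itself ranged only from 7.95 FPKM in H+Cd replicate 2 to 9.66 FPKM in H+Cd replicate 1.

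The other genes of the pathway were described by fixed lists, and 0 genes of any list passed. In whole testis their values do not show which cells made the RNA. The counts of positive genes stand beside 50.2% of all genes tested, and those of genes whose groups did not overlap beside 19.4%. The gene of smallest p in each list is named, a choice that favours groups without overlap. Among the 6 redox partners that pass electrons to the steroid enzymes, 4 were positive (median log2 fold change 0.09), and groups did not overlap in 1. Fdx1, the ferredoxin of the mitochondrial side-chain cleavage step, was the most abundant at 21.7, 22.8 and 22.3 FPKM in H+Cd and 19.0, 23.7 and 20.6 FPKM in H+H+Cd, and H6pd, which supplies NADPH in the endoplasmic reticulum, had a log2 fold change of 0.17 (adjusted p = 0.587). For Fdx1 the H+Cd libraries lay inside the H+H+Cd range. Of 13 genes of cholesterol delivery and storage, 4 were positive (median -0.04), and groups did not overlap in 3. Acsl4, an acyl-CoA synthetase that acts on arachidonic acid, stood at 9.01, 8.35 and 8.75 FPKM in H+Cd and at 5.31, 6.45 and 7.32 FPKM in H+H+Cd. Its groups did not overlap, and the log2 fold change was -0.41 (-0.69 to -0.13, adjusted p = 0.358). Lipe, the hormone-sensitive lipase that frees cholesterol from its esters, was the most abundant of this list at 107 to 125 FPKM in H+Cd and 109 to 118 FPKM in H+H+Cd.

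Of 11 measured genes of luteinizing hormone and cyclic AMP signalling, 4 were positive (median -0.02). Their groups did not overlap in 3, against 19.4% of all genes. Prkar1a, a regulatory subunit of protein kinase A, stood at 84.7, 89.1 and 91.6 FPKM in H+Cd and at 75.2, 82.4 and 72.4 FPKM in H+H+Cd (log2 fold change -0.20, -0.37 to -0.04, adjusted p = 0.39), without overlap. The phosphodiesterase Pde8a was more abundant and had a log2 fold change of -0.05. Of 9 measured transcription factors of steroidogenic cells, 4 were positive, and groups did not overlap in 2. Egr1, an immediate early gene, stood at 0.797, 0.567 and 0.493 FPKM in H+Cd and at 4.22, 0.917 and 1.23 FPKM in H+H+Cd. Its groups did not overlap, H+H+Cd replicate 1 stood far above the rest, and the adjusted p was 0.454. Sp1, the most abundant of these factors, had a log2 fold change of -0.11 (adjusted p = 0.637).

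Among 8 measured further hydroxysteroid dehydrogenases, all of the 17-beta family, 4 were positive. Their groups did not overlap in 2, against 19.4% of all genes. Hsd17b2, which turns testosterone back into androstenedione, stood at 0.706, 0.808 and 0.729 FPKM in H+Cd and at 1.96, 0.941 and 1.33 FPKM in H+H+Cd. The groups did not overlap at this low level (log2 fold change 0.44, 0.04 to 0.85, adjusted p = 0.398). Hsd17b4, a peroxisomal enzyme, was the most abundant, at 22.2 to 24.8 FPKM in H+Cd and 17.9 to 21.5 FPKM in H+H+Cd (-0.21, adjusted p = 0.431). Of 8 measured genes of androgen and oestrogen metabolism and response, 6 were positive, and groups did not overlap in 2. Rhox5, an androgen-dependent homeobox gene of Sertoli cells, stood at 12.03, 8.11 and 11.6 FPKM in H+Cd and at 17.2, 16.7 and 12.2 FPKM in H+H+Cd (log2 fold change 0.50, 0.05 to 0.95, adjusted p = 0.395), also without overlap. Sult1e1, the oestrogen sulfotransferase of Leydig cells, had a log2 fold change of -0.36 (adjusted p = 0.481).

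Of the other adult Leydig cell markers 7 of 13 were positive, with a median of 0.03. Vcam1, an adhesion molecule of Leydig cells, stood at 26.3, 23.3 and 19.5 FPKM in H+Cd and at 29.8, 30.4 and 32.8 FPKM in H+H+Cd. Its groups did not overlap, and the log2 fold change was 0.42 (0.15 to 0.70, adjusted p = 0.358). Inha was without overlap in the other direction, at 15.8, 15.9 and 17.5 FPKM in H+Cd and 14.4, 14.3 and 12.2 FPKM in H+H+Cd. The log2 fold change of Inha was -0.25 (-0.47 to -0.04, adjusted p = 0.39). The groups did not overlap in 2 of the 13 markers, against 19.4% of all genes. Fabp3, the most abundant, had a log2 fold change of -0.11. Beside these, the summed level of macrophage markers was 46.5 to 56.0 FPKM in H+Cd and 50.4 to 62.5 FPKM in H+H+Cd (7 of 9 positive, median 0.35). Peritubular myoid markers summed to 159 to 215 and 191 to 227 FPKM (8 of 8 positive, median 0.16). Most of that sum was Actg2, at 112 to 178 FPKM, and Acta2 had group means of 27.0 and 27.5 FPKM. Markers of Leydig progenitors and stroma summed to 8.96 to 11.6 and 11.3 to 11.8 FPKM (5 of 5 positive, median 0.12). Of all genes tested, 50.2% were positive. Sertoli markers had 8 of 13, endothelial 4 of 7, adipocyte 2 of 2 and spermatid markers 2 of 6 positive members. Epididymal markers summed to 96.9 FPKM in H+H+Cd replicate 1 and to 3.08 to 3.79 FPKM elsewhere, led by Crisp1 at 86.1 FPKM. That library also held the shifted transcript shares of Hsd3b6 and the highest values of Star, Egr1 and Hsd17b2. Without that library 7 of the 10 members had a positive log2 fold change. The part of these markers in those values and in the values of the members was not tested.

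Promoters, 250 bases before to 50 after the start of a gene, were found in RefSeq (GRCm38.p6) for 6 of the 10 genes, 7 in all because Cyp11a1 has 2. They were searched on both strands for AAGGTCA, an element that Nr5a1 binds, TGACGTCA, the full cyclic AMP response element, and GATAA, read by GATA factors. Star, Cyp17a1, Scarb1 and Nr5a1 had no promoter there and were not searched. AAGGTCA was in 0 of 7 (4.72% of all 32851 promoters) and TGACGTCA in 0 of 7 (1.79%). With shares this low, 0 of 7 does not tell these promoters from others. GATAA was in 3 of 7, those of Hsd17b3, Hsd3b1 and Hsd3b6 (25.4% of all). The shorter AGGTCA, which is contained in AAGGTCA and was chosen after these counts were seen, was in 2 of 7, those of Cyp11a1 and Lhcgr (16.3% of all). A match is a description of the letters, not of binding.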

How the data were processed

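The authors selected poly(A) RNA from testis, built stranded libraries for an Illumina NovaSeq sequencer, and estimated transcript levels with StringTie and Ballgown. The deposited table holds FPKM for 27120 transcripts in 6 libraries, with no counts, so depth and counting error are unknown. The submitters' processing notes name the build mm10. For the aligner and all versions, nothing was given in the sources used here. Columns were matched to samples by the label descriptions, and 0 columns were left unmatched.

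Transcripts were matched without version to GENCODE release M21 (27018, or 99.6%), and FPKM were summed per gene. Only listed transcripts enter a sum. log2(FPKM + 1) of genes with a mean above 0.5 FPKM in a group (13769) was fitted with limma 3.58.1 in R 4.3.3 (lmFit, eBayes with trend, group as the only factor, two-sided), with Benjamini-Hochberg adjustment over all genes at 0.05. A fold change on this scale understates that of low genes. Confidence intervals are 95%. Transcripts were fitted alike. Other tests are exact permutation tests, two-sided, made with Python 3.11.15, pandas 2.3.3 and SciPy. The fit was tested on simulated data. The members and lists were chosen with earlier results of these data known. The text names every member, the smallest p and the most abundant gene of each pathway list, and the 5 genes most like the members. Jak3, Crisp1, Inha, single spermatid and myoid markers and the Star ratios were chosen after values were seen. Alternatives were other pseudocounts, filters, scalings, models, transcript choices, and leaving out each library.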

Additional observations from a re-analysis of the deposited data

How the results depend on the processing

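Under 18 gene-level alternatives 0 of the 10 members and 0 of 14 named pathway genes passed. The count of all genes that passed was 3 with a filter above 1 FPKM, with median-ratio rescaling and without trend, 13 with the most abundant transcript of each gene, 4 with fragments instead of FPKM (chosen after seeing the data), and 0 with the F-test, with transcripts of the same version only and with a replicate block. Leaving out 1 library gave 0 to 3 genes. Numbers shared between groups did not pair the libraries (correlations of deviations -0.08, -0.0018 and -0.16), and the block changed no call of a member. The mean pairwise correlation was 0.13 to 0.49 with 1 library left out, the lowest without H+Cd replicate 2.

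Of 179 member results under alternatives 11 turned, in 7 members, none of them past the threshold. Without H+Cd replicate 2 the log2 fold change was -0.027 for Cyp11a1, -0.0074 for Hsd17b3, -0.15 for Insl3, -0.16 for Lhcgr and 0.016 for Lipe. That of Cyp17a1 was 0.08 without H+Cd replicate 1, 0.0018 without H+Cd replicate 3 and 0.14 without H+H+Cd replicate 3. That of Nr5a1 was 0.026 without H+Cd replicate 1 and 0.012 without H+H+Cd replicate 2. Over all single libraries left out, the log2 fold change ran from -0.027 to 0.52 for Cyp11a1, -0.13 to 0.14 for Cyp17a1, -0.0074 to 0.12 for Hsd17b3, -0.15 to 1.13 for Insl3, -0.16 to 0.21 for Lhcgr, -0.079 to 0.026 for Nr5a1, 0.64 to 1.02 for Star, -0.37 to -0.15 for Hsd3b1, 0.30 to 0.95 for Hsd3b6, 0.047 to 0.18 for Scarb1 and -0.094 to 0.016 for Lipe. With the most abundant transcript it was -0.54 for Hsd3b6, -0.23 for H6pd and 0.38 for Lipe, with fragments 0.085 for Lipe, and with Jak3 joined -0.17 for Insl3. The cause was not tested beyond what each alternative left out. Lhcgr had no value with transcripts of the same version only. Protein identity of the Hsd3b pair was not run. With 3 libraries a group and no counts, changes within the intervals given could not be told from none.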
